A study of Mus musculus with 2 samples.

Results

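Fc receptors are the proteins through which leukocytes bind the constant part of antibodies, and their transcripts were followed here in mouse bone marrow neutrophils. The genes were Fcgr1, Fcgr2b, Fcgr3, Fcgr4, Fcer1g, Fcer1a and Fcgrt, chosen by name. These genes and the gene lists set beside them were chosen with earlier results of these data known. All 12 probe sets annotated to these 7 genes were used, of 45037 probe sets and 18193 named genes in all. Cells labelled Jdp2 KO, a knockout of the AP-1 family repressor Jdp2, were set against cells labelled Jdp2 WT, and both groups share a mixed C57BL/6 /129/J background. The cells of both groups had been sorted by flow cytometry as CD11b+ Ly6G+ with low Ly6C. Each group was 1 Affymetrix array, so there are no replicates, no difference has an error between mice or a p-value, and the number of arrays limits every statement. The sources used here state neither age nor sex, nor how many mice stand behind an array, nor which part of Jdp2 was deleted.

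In mice the activating IgG receptors encoded by Fcgr1, Fcgr3 and Fcgr4 bind antibody outside the cell and signal through a shared partner, the common gamma chain encoded by Fcer1g. That chain carries an immunoreceptor tyrosine-based activation motif (ITAM), which Src family kinases phosphorylate and to which the kinase Syk then binds. Fcgr2b encodes the inhibitory IgG receptor, whose inhibitory motif recruits the lipid phosphatase encoded by Inpp5d. In neutrophils these receptors take part in the uptake of antibody-coated microbes and in responses to immune complexes. Fcer1a encodes the IgE-binding chain known mainly from mast cells and basophils, and Fcgrt encodes the neonatal receptor FcRn, an intracellular receptor that returns IgG to the circulation and pairs with beta-2 microglobulin.

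Values are log2 signals, and a difference is the KO array minus the WT array. For each gene the strongest probe set, by the mean of its 2 values, stood for the gene. It passed the level filter when at least 1 of its values reached the median of that array, 5.67 on the KO array and 5.65 on the WT array. Neutrophil markers were abundant on both arrays: 11 of 11 measured genes passed and none was 2-fold apart (median difference -0.04). Many of them lay near the top of the scale, such as S100a8 at 14.47 in KO and 14.30 in WT, where differences can be compressed. Itgam, the gene of the sort marker CD11b, had the largest difference, reading 10.67 in KO and 11.09 in WT (-0.43), followed by Csf3r (-0.30), Cxcr2 (0.24) and Ngp (0.18). The sort marker gene Ly6g is not analysed here. Jdp2 itself read 12.38 on the KO array and 11.997 on the WT array at its stronger probe set, and 5.40 in KO and 5.24 in WT at the other. Where these probes lie relative to the deletion is not given, so the genotype labels are unchecked by the gene, and directions refer to the arrays as labelled.

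The Fc receptor transcripts of neutrophils read nearly alike on both arrays. Of the 7 genes, 6 passed the level filter, and 5 of these 6 lay within 2-fold. Fcgr1, a gene known mainly from monocytes and macrophages, was the exception, at least 2-fold higher in the KO array at 1 of its 2 probe sets. None was at least 2-fold lower. Over all 11168 genes that passed, 3.06% were at least 2-fold higher and 2.33% at least 2-fold lower. The median difference of the 6 genes was 0.03, with 3 above 0 and 3 below, against a median of -0.04 over all genes that passed. Over all 7 genes, without the filter, it was -0.02.

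**Figure D1:**
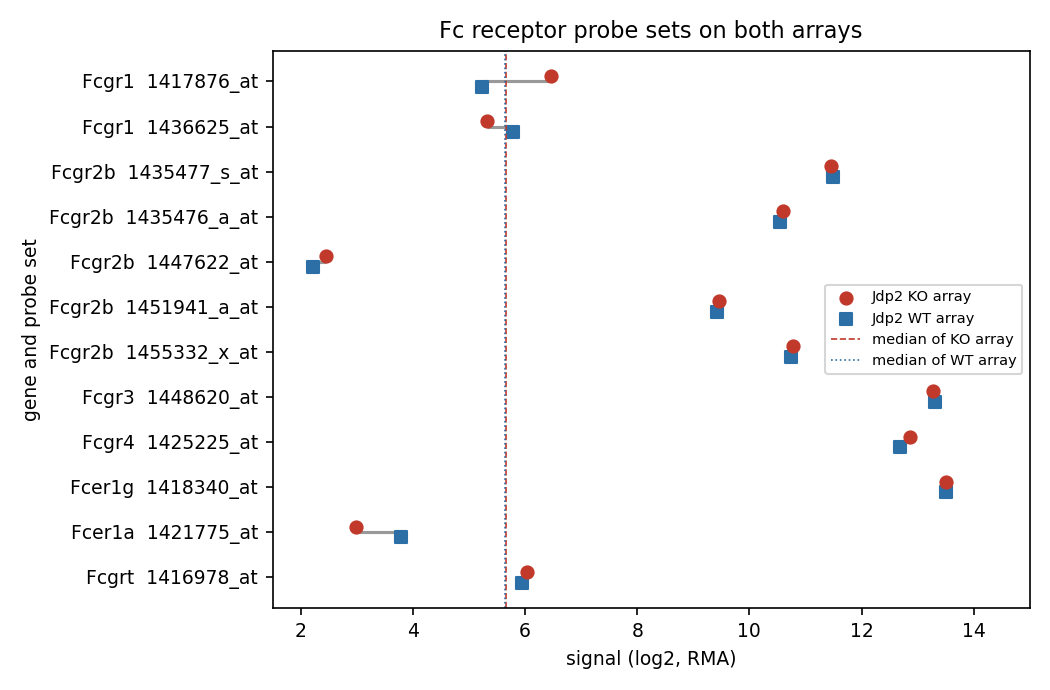
Log2 signal of every Fc receptor probe set (rows, with gene symbol) on the KO array (red circles) and the WT array (blue squares), with the median of each array as a vertical line. The pairs of Fcgr2b, Fcgr3, Fcgr4, Fcer1g and Fcgrt nearly coincide, while the probe sets of Fcgr1 lie apart in opposite directions and the pair of Fcer1a lies apart below the medians.

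Upstream sequences are shown beside these values to give the letters of AP-1, PU.1 and STAT type sites that the Fc receptor genes hold. Windows of 250 bases before the start site came from RefSeq (GRCm38.p6), in which all 7 genes matched with 8 windows. For Fcgr3, the start sites of its windows lie 6512 and 6521 bases downstream of the gene's outermost annotated start. The sequence before that outer start was not searched. Both strands were searched for the AP-1 site TGANTCA and the cyclic AMP response element TGACGTCA, the kinds of site that Jdp2-containing dimers are known to bind, for the PU.1 box GAGGAAGT, for the shorter ETS core GGAAGT that lies within it, and for the interferon-gamma activated site TTCNNNGAA. The AP-1 letters were in none of the Fc receptor windows and in 6.75% of 32851 windows in all, and the TGACGTCA letters in none and in 1.55%. The ETS core was found for 3 genes, Fcgr1, Fcgr2b and Fcgr4, and in 19.7% of all windows. The longer PU.1 box was found for Fcgr4, and in 2.44% of all windows. The TTCNNNGAA letters were found for Fcgr1, beginning 109 bases before the start site, and in 7.02% of all windows. A match is no evidence of binding, and letters missing from these windows say nothing about a factor. The windows of the 3 genes with a match are printed 5′ to 3′ on the gene's strand, with the matches in capitals: Fcgr1 (chr3:96293970-96294219, minus strand), with the TTCNNNGAA match first and the ETS core second, Fcgr4 (chr1:171018676-171018925, plus strand), with the PU.1 box that holds its ETS core, and Fcgr2b (chr1:170976072-170976321, minus strand), with its ETS core.
Fcgr1: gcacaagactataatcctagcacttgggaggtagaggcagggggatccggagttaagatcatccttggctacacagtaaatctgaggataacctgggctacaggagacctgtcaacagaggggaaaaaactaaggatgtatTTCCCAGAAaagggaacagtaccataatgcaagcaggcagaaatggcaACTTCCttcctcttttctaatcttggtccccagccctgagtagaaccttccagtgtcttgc
Fcgr4: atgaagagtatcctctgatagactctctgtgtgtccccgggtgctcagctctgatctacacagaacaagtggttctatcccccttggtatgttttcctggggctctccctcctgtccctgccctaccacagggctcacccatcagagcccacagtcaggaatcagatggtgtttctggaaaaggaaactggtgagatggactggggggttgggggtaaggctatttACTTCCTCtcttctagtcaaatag
Fcgr2b: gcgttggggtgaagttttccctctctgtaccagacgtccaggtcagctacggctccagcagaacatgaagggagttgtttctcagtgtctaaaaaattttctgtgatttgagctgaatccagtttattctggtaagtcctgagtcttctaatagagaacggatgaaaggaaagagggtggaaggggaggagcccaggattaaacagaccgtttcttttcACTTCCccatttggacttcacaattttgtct
The ETS core thus stands in the windows of Fcgr1 (difference 1.24 at the stronger probe set), of Fcgr4 (0.18) and of Fcgr2b (-0.03).

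Fcer1g, the signalling chain that the activating receptors share, read 13.50 on the KO array and 13.51 on the WT array (probe set 1418340_at). In absolute size its difference of -0.02 was smaller than that of all but 3.86% of the genes that passed. The values lay above their array's median by 7.83 in KO and 7.87 in WT. The gene has a single probe set, so no second reading stands beside it.

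Fcgr3, which encodes a low-affinity activating IgG receptor, read 13.27 on the KO array and 13.32 on the WT array (1448620_at, difference -0.05). Fcgr4, which encodes a further activating IgG receptor of mouse myeloid cells, read 12.87 on the KO array and 12.69 on the WT array (1425225_at). Its difference of 0.18, or 1.13-fold higher in KO, was the largest among the abundant receptors. It still lay under the median absolute difference of all genes that passed, 0.24, and 39.9% of those genes had a smaller one. Strong probe sets can be compressed near the top of the scale, which ended at 14.56 on the KO array and 14.54 on the WT array.

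Fcgr2b, the inhibitory receptor, was read by the most probe sets, of which 4 of 5 passed. The strongest probe set (1435477_s_at) read 11.46 on the KO array and 11.49 on the WT array, a difference of -0.03. The probe set 1455332_x_at read 10.77 in KO and 10.73 in WT. The probe set 1435476_a_at read 10.60 in KO and 10.55 in WT. These 3 probe sets are annotated to the same transcript record and are not independent readings. The probe set 1451941_a_at, from another record, read 9.46 in KO and 9.42 in WT. All 4 differences fell between -0.03 and 0.05 (SD 0.04 over the 4 probe sets). Their range was 0.07. Of the 874 genes with at least 4 passing probe sets, 6 had a narrower range, and the median was 0.60. The suffixes s and x are the maker's marks for probes that may also match other transcripts, and the extracellular parts of Fcgr2b and Fcgr3 are closely related in sequence. With such probe sets left out, Fcgr2b differed by 0.04. The remaining probe set, 1447622_at, read 2.45 in KO and 2.22 in WT, far below both medians, and did not pass.

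The differences of 3 abundant IgG receptor genes, Fcgr3 (-0.05), Fcgr4 (0.18) and Fcgr2b (-0.03), and of the signalling chain gene Fcer1g (-0.02) spanned 0.23. The other activating receptor gene, Fcgr1, whose signals were weak, lay outside that span at both its probe sets. With 1 array per group, differences of this size cannot be told from none, nor shown to be none. Pooled over 4867 genes with several passing probe sets, the SD of the difference between probe sets of the same gene was 0.36, a technical spread that says nothing of mice.

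**Figure D2:**
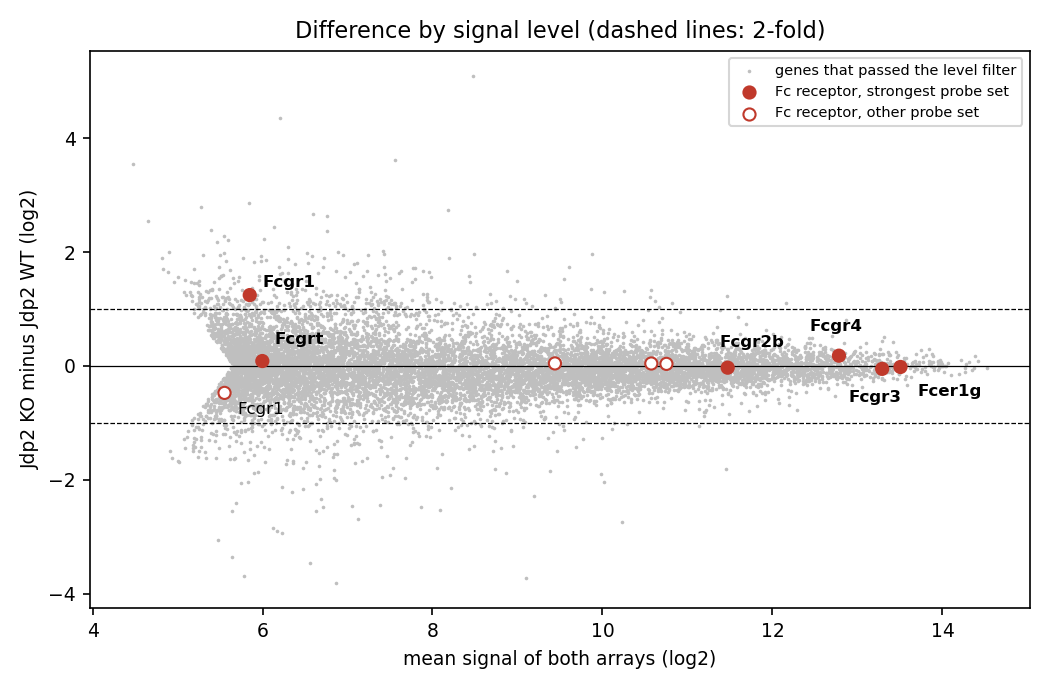
Difference (KO minus WT, log2) against the mean signal of both arrays (log2) for the 11168 genes that passed the level filter (grey) and for the passing Fc receptor probe sets (red, filled for the probe set that represents the gene, open for others). Dashed lines mark 2-fold. The strongest Fcgr1 probe set lies above the upper line at 1.24, its other probe set at -0.47, and the remaining receptors lie along 0.

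Fcgr1, the high-affinity IgG receptor (CD64) and the gene whose window holds the TTCNNNGAA letters, differed between its probe sets. The stronger, 1417876_at, read 6.47 on the KO array and 5.23 on the WT array, a difference of 1.24, or 2.37-fold higher in KO. Its WT value lay below the array median, and the difference came to 1.77-fold once that value was set to the median. The second, 1436625_at, also passed and pointed the other way, reading 5.32 in KO and 5.79 in WT, a difference of -0.47. Its KO value lay below the array median, and once that value was set to the median the difference was -0.12, or 1.09-fold. The mean of both probe sets differed by 0.39, under 2-fold. A spread of 1.72 between passing probe sets is unusual on these arrays, where 1.60% of 4867 such genes had one as wide and the median was 0.39. Of the 152 genes past 2-fold that had several passing probe sets, 31 (20.4%) had a passing probe set of opposite sign.

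Markers of monocytes and macrophages were higher on the KO array, where the stronger Fcgr1 probe set was higher too. Of 16 measured genes, all passed, 15 had a difference above 0, and 11 were at least 2-fold higher, with a median of 1.16. Their linear signals summed to 13087 on the KO array and 7617 on the WT array, 1.72 times as much in KO. Adgre1, a surface marker gene of mature macrophages, read 9.95 in KO and 8.70 in WT. Mrc1, the mannose receptor gene, read 8.78 in KO and 7.13 in WT. The other markers past 2-fold were F13a1 (2.43), Ms4a6c (1.69), C1qa (1.54), Ctss (1.33), C1qc (1.18), C1qb (1.17), Vcam1 (1.15), Cd163 (1.11) and Ccr2 (1.07). In 4 of the 11 the WT value lay below the array median. With that value set to the median, KO was 1.71-fold higher for C1qa, 1.78-fold for C1qc, 1.76-fold for Ms4a6c and 3.25-fold for F13a1, so that 8 of the 11 were still past 2-fold. Further markers stayed closer: Csf1r, the receptor gene for macrophage colony-stimulating factor, differed by 0.27, Cd68, a lysosomal glycoprotein gene, by 0.23, Cx3cr1 by 0.25 and Cd5l by 0.47. Mertk, a receptor gene for the uptake of dying cells, lay the other way at -0.59. The part of these markers in the Fcgr1 value was not tested. In a bulk sample, fewer cells of a type and less RNA per cell cannot be told apart. Of the 11 marker genes past 2-fold, 2 had several passing probe sets, C1qb and Vcam1, and in both every passing probe set was above 0. Probe sets below the filter differed by 0.63, 0.01 and -0.02 for Ccr2, by 0.15 for Ms4a6c and by -0.69 for Cx3cr1. With all probe sets averaged, Ccr2 differed by 0.42 and Ms4a6c by 0.92, both under 2-fold, and Cx3cr1 by -0.22. The median of the list was then 1.24.

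**Figure D3:**
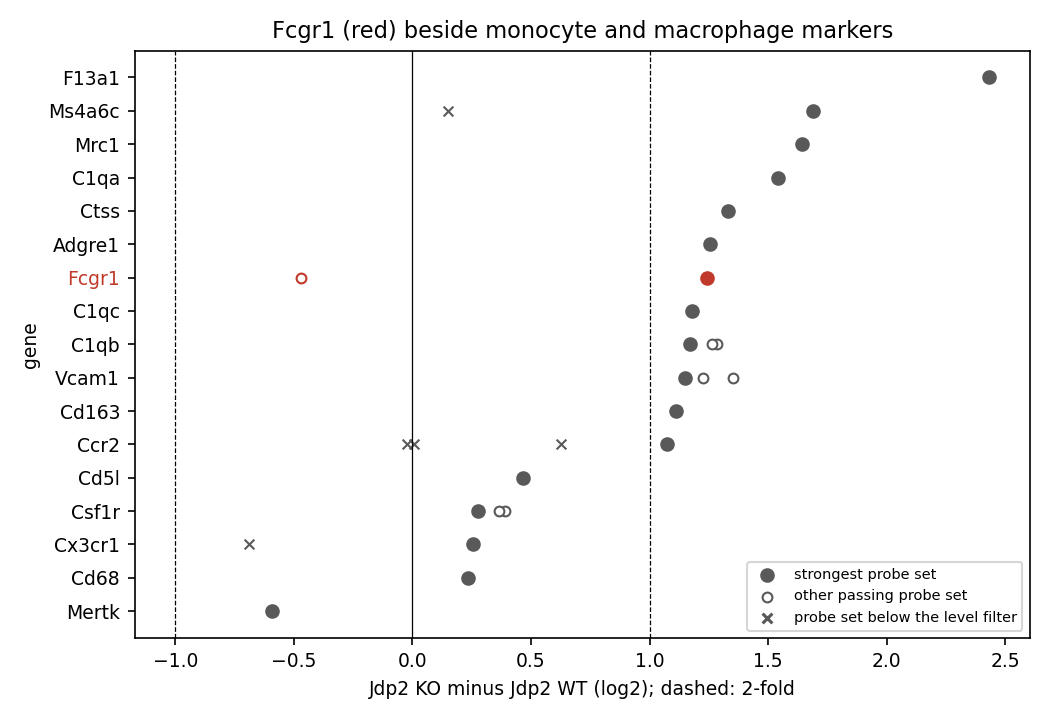
Difference (KO minus WT, log2) of Fcgr1 (red) and of each monocyte and macrophage marker (rows, ordered by the strongest probe set), with filled circles for the strongest probe set, open circles for other passing probe sets and crosses for those below the level filter. Fcgr1 at 1.24 stands among the 11 markers past 2-fold, but its second probe set at -0.47 lies on the other side of 0, unlike those of C1qb and Vcam1.

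The 3 list genes whose pair of signals lay closest to that of the stronger Fcgr1 probe set were C1qc, Igll1 and H2-Ab1. Likeness was the Euclidean distance over the 2 log2 values, and 112 passing genes of the lists were compared. The distances were 0.07 for C1qc, a complement gene of macrophages, 0.16 for Igll1, a gene of early B cells, and 0.17 for H2-Ab1, of class II antigen presentation. With 2 arrays this says only that the signals were alike.

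Fcer1a, the IgE-binding chain, was the gene that did not pass the filter. Its only probe set (1421775_at) read 2.98 on the KO array and 3.79 on the WT array, both below the medians, and no fold is given for the difference of -0.80. Markers of basophils and mast cells, the cells known for this receptor, were weak apart from Hdc. The basophil protease gene Mcpt8 read 5.24 in KO and 4.81 in WT. The mast cell carboxypeptidase gene Cpa3 read 4.64 in KO and 4.33 in WT. Ms4a2, which encodes the beta chain of the same IgE receptor, read 3.91 in KO and 3.67 in WT, and none of these 3 genes passed. Of 10 such genes measured, 4 passed (median -0.06, none 2-fold apart). These 4 were the histidine decarboxylase gene Hdc, at 12.48 in KO and 12.64 in WT, and Kit (-0.82), Gata2 (0.07) and Il3ra (0.03). The other probe set of Gata2, weaker on average, also passed and was more than 2-fold lower. It read 4.95 in KO, below the array median, and 6.43 in WT (-1.48). The linear signals of all 10 summed to 6041 in KO and 6716 in WT, and those of the 9 other than Hdc to 329 in KO and 354 in WT.

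Fcgrt stood just above the filter, at 6.04 on the KO array and 5.95 on the WT array (1416978_at, difference 0.09). Signals this weak hold background as well as transcript, which understates folds. Its light chain gene B2m, by contrast, was abundant and read 14.00 on both arrays, a difference of 0.00 at its strongest probe set and 0.12 at the other.

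Genes that act with the Fc receptors were next described from lists of the pathway. Of 7 measured genes for ITAM adaptors, related adaptors and receptors that pair with such chains, 4 passed and none was 2-fold apart. Their median was 0.26, and a filter at the 75th percentile gave 0.037. Tyrobp, which encodes the adaptor DAP12, read 13.71 in KO and 13.67 in WT. The adaptor gene Hcst (DAP10) differed by -0.13. The lectin receptor genes Clec4n and Clec4e, whose proteins signal through the Fcer1g chain, were higher in KO on all their probe sets without reaching 2-fold. Clec4n (dectin-2) read 7.65 in KO and 6.67 in WT, with differences of 0.98 and 0.84 at its probe sets. Clec4e (Mincle) read 12.68 in KO and 12.19 in WT, with differences of 0.49 and 0.71. The signalling chain itself differed by -0.02, as above.

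Of 29 measured activating kinases and adaptors, 27 passed, 2 were at least 2-fold higher and none lower, with 20 below 0 and a median of -0.10, against -0.04 and 55.1% below 0 over all genes that passed. Syk, the kinase that binds the phosphorylated ITAM, read 10.998 in KO and 11.37 in WT, and its 4 passing probe sets ran from -0.59 to 0.22. The Src family kinase gene Fgr differed by -0.12. Fyn, of the same family, was the largest difference: it read 7.89 in KO and 5.89 in WT, 3.99-fold higher in KO, with its other probe set, below the filter, at 0.71. Vav2, a guanine nucleotide exchange factor, read 6.30 in KO and 4.73 in WT, which came to 1.57-fold with the WT value raised to the median. The other Vav2 probe sets, below the filter, differed by 0.80 and 0.07, and the mean of all Vav2 probe sets by 0.82, under 2-fold. Its relatives Vav1 (-0.10) and Vav3 (0.14), whose signals were strong, stayed near 0. Tec, a kinase related to Btk, differed by -0.44, the phosphoinositide 3-kinase subunit gene Pik3cb by -0.44 and the phospholipase gene Plcg1 by 0.40, with another passing probe set of Plcg1 at -0.01.

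Among inhibitory phosphatases and receptors, 17 of 18 measured genes passed, none was 2-fold apart, and the median was -0.04. Inpp5d, whose product SHIP1 is recruited by the Fcgr2b receptor, read 11.63 in KO and 11.67 in WT. Ptpn6, encoding the phosphatase SHP-1, differed by -0.16. The largest differences were those of Cd200r1 (0.47, with 0.04 at its other probe set), Ceacam1 (-0.38, with all 8 probe sets between -0.77 and -0.25), Dok2 (-0.27), Siglece (0.24) and Pirb (-0.18). Several of the Ceacam1 probe sets carry the suffix s or x and may also match other transcripts.

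Other immunoglobulin receptor genes, listed together with Fc receptor-like genes, were mostly weak. Of 9 measured genes, 3 passed and none was 2-fold apart. Their median was 0.14. With probe sets averaged it was -0.13 over these 3, and -0.15 over the 2 that then passed, Fcrl1 and Trim21. The 3 genes were Trim21, encoding a cytosolic antibody receptor (0.14, with -0.39 at its other probe set), the Fc receptor-like gene Fcrl1 (0.14, with -0.48 at its other probe set) and Fcrla (-0.12). Fcrl1, known from B cells, read 9.17 in KO and 9.02 in WT, and 6.24 in KO and 6.72 in WT at the other probe set. Genes that did not pass included Pigr, the polymeric immunoglobulin receptor, and Fcmr, the IgM receptor.

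**Figure D4:**
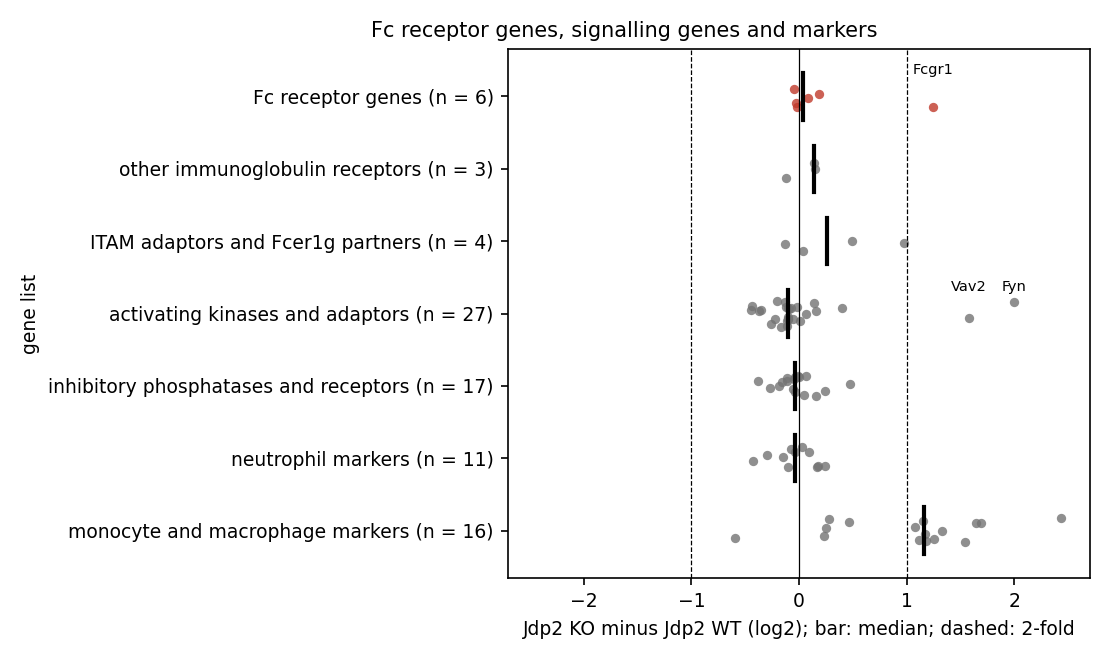
Difference (KO minus WT, log2) of each gene that passed the level filter, by list (rows, with the number of genes), with the list's median as a black bar and dashed lines at 2-fold. The Fc receptor genes (red) gather at 0 apart from Fcgr1, and in the signalling lists Fyn and Vav2 lie past 2-fold, while the monocyte and macrophage markers centre on 1.16.

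The receptors were also read beside their neighbours in the gene order of assembly GRCm38.p6, with 3 measured genes on each side. Fcgr2b, Fcgr4 and Fcgr3 follow each other on chromosome 1, between Fcrla and Cfap126, and Fcer1g lies farther along the same chromosome, between Apoa2 and Adamts4. Fcrla read 5.88 in KO and 6.00 in WT (-0.12), and Cfap126 read 5.69 in KO and 5.73 in WT (-0.04). Both stood just above the array medians, so their small differences say little beside those of the abundant cluster genes. Of 30 such neighbours of all 7 genes, 22 passed, with a median of -0.03. The only neighbour at least 2-fold apart was the histone gene H2bc21 (1.005, reading 7.96 in KO and 6.95 in WT), which is 3 measured genes from Fcgr1 on chromosome 3. The genes directly beside Fcgr1, H2bc18 (-0.11) and Platr30 (0.02), read alike on both arrays.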

How the data were processed

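RNA from sorted bone marrow neutrophils was measured on 2 arrays, 1 per genotype label. The authors deposited log2 signals, 1 per probe set, and the submitters' processing notes name RMA, without version or settings. When sorted, the values of both arrays differed by at most 0.117, and RMA gives no detection call. Of 45101 probe sets, 64 controls were left out. Symbols came from the platform annotation and were updated by Entrez identifier to assembly GRCm38.p6: 34945 probe sets had 1 symbol (34741 matched by identifier), 932 had several and 9160 had none listed. Those with several or none were not named.

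With 1 array per group no test is possible, and genes were counted by size, a log2 difference of at least 1 (2-fold). Named were every probe set of the Fc receptor genes and, per list, up to 5 passing genes of largest absolute difference and all past 2-fold, the 3 measured neighbours on each side of each receptor gene (given mostly as counts), and the 3 list genes nearest to any receptor gene past 2-fold. List genes named outside that rule (Syk, Fgr, Vav1, Vav3, Inpp5d, Ptpn6, Csf1r, Cd68, Mcpt8, Cpa3, Ms4a2, Cx3cr1, Cd5l, Mertk, Pigr, Fcmr, Ncr1) were picked once values were known. The members and lists were chosen with earlier results of these data known. The lists were other immunoglobulin receptors, ITAM adaptors, activating and inhibitory signalling genes, and markers of neutrophils, promyelocytes, monocytes and macrophages, basophils and mast cells, eosinophils, B cells, T and NK cells, dendritic cells, platelets and erythroid cells. Alternatives were other level filters, scalings and choices of probe set. Python 3.11.15 with pandas 2.3.3 and statsmodels 0.14.6 was used, and the counting was tested on simulated arrays with known shifts.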

Additional observations from a re-analysis of the deposited data

How the results depend on the processing

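No paired analysis was possible because each group holds 1 array. Of the Fc receptor genes, 1 was at least 2-fold higher as reported, and 0 were with a filter on both values, with a filter at the 75th percentile and with probe sets averaged. The first and second of these leave Fcgr1 out, so no value of it stands there. Averaged over both probe sets Fcgr1 differed by 0.39, with its WT value raised to the median by 0.82, and its other probe set alone, an alternative chosen after seeing the data, reversed the direction (-0.47). Under array centring, quantile normalisation and a loess trend removed, Fcgr1 stayed between 1.23 and 1.24, and no other member reached 2-fold under any of the 8 alternatives. Fcgr2b, at -0.03 as reported, was at 0.06 with probe sets averaged. Over all genes, the counts of 342 higher and 260 lower came to 184 and 145 with the filter on both values, to 110 and 87 at the 75th percentile and to 183 and 171 with probe sets averaged. The median of other immunoglobulin receptors was -0.15 with probe sets averaged, when Fcrla no longer passed, and that of ITAM adaptors and Fcer1g partners was 0.037 at the 75th percentile. The medians of the activating and the inhibitory list kept their sign and moved by less than 0.1 under all 8. Weak signals limit Fcgr1, Fcgrt and Fcer1a, and the number of arrays limits every value.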

Other observations

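Markers of other cells that carry Fc receptors were measured as well. B cells, which carry the Fcgr2b receptor, had 5 of 10 measured marker genes above the filter, with a median difference of 0.10, and all 10 had a summed linear signal of 1187 in KO and 1604 in WT. Cd79a differed by 0.85, Ighm by -0.93, Ebf1 by -0.31, Vpreb1 by 0.10 and Igll1 by 1.15, which came to 1.6-fold with its WT value set to the median. The other passing probe sets of Ighm differed by -1.45 and 0.07, and the other Igll1 probe set, below the filter, by 0.06. For T and NK cells, 4 of 11 genes passed (median 0.05), Nkg7 (0.70), Cd8a (-0.66), Cd3e (0.25) and Prf1 (-0.15), and the NK receptor gene Ncr1, whose product signals through the Fcer1g chain, read 3.51 in KO and 3.32 in WT, below the filter. Dendritic cell markers had a median of 0.51 over 6 passing genes, of which 3 were at least 2-fold higher, Cd74 (1.09), Cd83 (1.05) and H2-Ab1 (1.04). With its WT value set to the median H2-Ab1 came to 1.57-fold. The other passing probe sets of H2-Ab1 differed by 1.28 and 0.38, and the mean of all its probe sets by 0.90, under 2-fold. Itgax differed by -0.18 and Zbtb46 by -0.09, with another passing probe set of Zbtb46 at -0.85. For eosinophils 2 of 6 genes passed, Siglecf (0.43) and Ccr3 (1.13), which came to 1.19-fold with its WT value set to the median.

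The 5 promyelocyte genes, Mpo (5.09), Ctsg (4.36), Elane (3.62), Prtn3 (2.86) and Ms4a3 (1.04), were all at least 2-fold higher in KO (median 3.62, summed linear signal 5550 in KO and 1283 in WT). The WT values of Ctsg and Prtn3 lay below the median, and set to it gave 6.64-fold and 3.06-fold. Platelet markers had a median of 1.09, with 3 of 5 at least 2-fold higher, Ppbp (1.97), Pf4 (1.66) and Gp1bb (1.09), while Gp9 differed by 0.76 and Itga2b by -0.34. The other passing probe set of Gp1bb differed by 0.85, under 2-fold. Erythroid markers had a median of -0.71 over 2 passing genes, Slc4a1 (-0.14) and Car2, which was at least 2-fold lower (-1.29). Not every gene of these lists moved, as Slc4a1 stayed near 0 and Itga2b lay opposite to the other platelet markers. Fcgr2b, Fcgr3, Fcgr4 and Fcer1g each differed by less than 0.2 on the same arrays. Their signals were stronger, and differences can be compressed near the top of the scale.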
